A study of Mus musculus with 4 samples.

Results

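Cirbp and Rbm3, 2 genes for RNA-binding proteins that cells make more of when cooled, were examined together with 8 heat-shock genes (Hspa1a, Hspa1b, Dnajb1, Hspb1, Hsph1, Hsp90aa1, Hspa8 and Hspa5) in the cerebellum of mice in which Kdm6b, the gene of a histone demethylase, is deleted in the granule neuron lineage. These 10 genes were picked by name, with their values in the same comparison of genotypes known: Cirbp because it was higher in the mutant, and the heat-shock genes to ask whether they moved the other way. They are 10 of 55341 genes listed in each library, and all 10 were among the 16617 genes with enough counts to be tested. Because the choice rested on this contrast, the differences of the 10 genes are given as a description and carry no p-value.

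RNA-seq was done on whole cerebellum at postnatal day 14 from 2 Kdm6b-cKO mice (Atoh1-Cre; Kdm6b fl/fl) and 2 littermates called WT (Kdm6b fl/fl without Cre). In all 4 animals, loxP sites thus flanked the exons of both Kdm6b alleles that encode the catalytic Jumonji-C domain. The rest of the gene was not flanked. Only the cKO animals carried the Atoh1-Cre transgene. Atoh1 is active in granule neuron precursors, so Purkinje cells, glia and vessels in the same tissue were not targeted. Each library came from 1 mouse. In bulk tissue, fewer cells of a type and less RNA per cell cannot be told apart.

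The mammalian cold-inducible RNA-binding proteins CIRBP and RBM3 each have a single RNA recognition motif followed by a glycine-rich tail, and they bind messenger RNAs and affect their stability, translation and processing. Their mRNAs increase in mildly cooled mammalian cells and decrease in warm ones, the opposite of heat-shock genes, and RBM3 is known in mouse brain for its link to the maintenance of synapses. Heat-shock genes encode chaperones that fold new or damaged proteins. In stressed cells the transcription factor HSF1 binds heat-shock elements and switches on genes such as Hspa1a, Hspa1b, Dnajb1 and Hspb1, whereas Hspa8 is made at high level in unstressed neurons and Hspa5 answers to misfolded protein in the endoplasmic reticulum.

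The promoters of these genes were read for the letters of stress and cold motifs. In the RefSeq promoter table (GRCm38.p6; 250 bases before to 50 after each start), 7 of the 10 genes matched, with 10 windows. The windows were searched on both strands for a heat-shock element of 2 units (GAANNTTC or TTCNNGAA), which 15.1% of all 32851 windows held, and of 3 units (GAANNTTCNNGAA or TTCNNGAANNTTC, each of which contains both shorter forms), held by 0.603%. They were also searched for a mild-cold response element described for Cirbp (TCCCCGCC), held by 5.38%, and for the endoplasmic reticulum stress element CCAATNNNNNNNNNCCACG, held by 0.119%. Stretches that carry the matches are printed 5′ to 3′ on the gene's strand, with the matched letters in capitals. Those of Hspa1a, Hspa1b and Hspb1 lie upstream of the annotated gene. That of Cirbp lies inside the gene as GENCODE annotates it, between annotated exons, since a longer transcript starts farther upstream, and those of Hsph1 and Hspa5 lie within an annotated exon.
Cirbp, chr10:80167589-80167777, plus strand: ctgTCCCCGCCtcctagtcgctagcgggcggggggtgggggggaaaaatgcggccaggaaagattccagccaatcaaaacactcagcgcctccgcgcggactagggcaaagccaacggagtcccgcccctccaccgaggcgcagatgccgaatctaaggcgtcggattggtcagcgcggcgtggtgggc
Hspa1a, chr17:34972213-34972300, minus strand: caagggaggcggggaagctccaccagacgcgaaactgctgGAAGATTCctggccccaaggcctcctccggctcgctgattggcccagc
Hspa1b, chr17:34959295-34959382, minus strand: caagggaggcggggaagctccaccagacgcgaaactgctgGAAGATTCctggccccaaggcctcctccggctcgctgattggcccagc
Hspb1, chr5:135887762-135887869, plus strand: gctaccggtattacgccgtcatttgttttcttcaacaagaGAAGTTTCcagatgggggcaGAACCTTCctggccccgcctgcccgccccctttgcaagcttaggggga
Hsph1, chr5:149636283-149636305, minus strand: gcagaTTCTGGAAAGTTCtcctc
Hspa5, chr2:34772020-34772048, plus strand: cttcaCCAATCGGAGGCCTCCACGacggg

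The first of 2 Cirbp windows held the mild-cold letters 247 bases before its start, and the other Cirbp window held none of the 4 motifs. Hspa1a and Hspa1b, neighbours on chromosome 17, carried the same heat-shock element at 104 bases before their starts, and their whole windows differed at only 4 of 300 bases. The mild-cold letters also stood on the opposite strand of both windows, at 137 bases before the start, and in 1 of the 2 Dnajb1 windows. Hspb1 had a pair of heat-shock elements at 117 and 97 bases before its start. Hsph1 alone of the 7 genes had the 3-unit form, just past its start. A separate 2-unit element of Hsph1 lay upstream, 54 bases before 1 of its 2 starts and 33 bases before the other. Hspa5 alone had the endoplasmic reticulum stress element, 65 bases before its start. Neither Dnajb1 window held the letters of a heat-shock element. A match of letters is a description and does not show that a factor binds there.

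Levels are given as CPM, the usual per-library scaling of counts with library sizes adjusted by the trimmed mean of M-values (TMM), and differences as log2 fold changes of cKO over WT. Cirbp (ENSMUSG00000045193.13, chr10:80165985-80172786 of GRCm38, plus strand) was at 93.7 and 88.6 CPM in cKO 1 and cKO 2, against 65.2 and 61.9 CPM in WT 1 and WT 2. Both cKO libraries were above both WT libraries, and the gap between genotypes was several times the gap within either. The means were 91.2 ± 3.63 CPM in cKO and 63.5 ± 2.32 CPM in WT (SD, n = 2 each), a 1.44-fold difference (log2 0.52, SE 0.084). The value was 0.56 with WT 1 left out, 0.49 without WT 2, 0.48 without cKO 1 and 0.56 without cKO 2.

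Rbm3, the closest relative of Cirbp among cold-inducible genes, differed by less. Rbm3 (ENSMUSG00000031167.16, chrX:8138975-8145880, minus strand) was at 120.8 and 121.1 CPM in cKO 1 and cKO 2, against 105 and 99.0 CPM in WT 1 and WT 2. The 2 cKO libraries were almost equal and both stood above the WT libraries. The means were 120.9 ± 0.239 CPM in cKO and 102 ± 4.35 CPM in WT (SD, n = 2 each), a 1.18-fold difference (log2 0.24, SE 0.078). It was 0.29 without WT 1 and 0.20 without WT 2. Cirbp and Rbm3 together summed to 214 and 209.7 CPM in cKO 1 and cKO 2, against 170.3 and 161 CPM in WT 1 and WT 2.

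**Figure D1:**
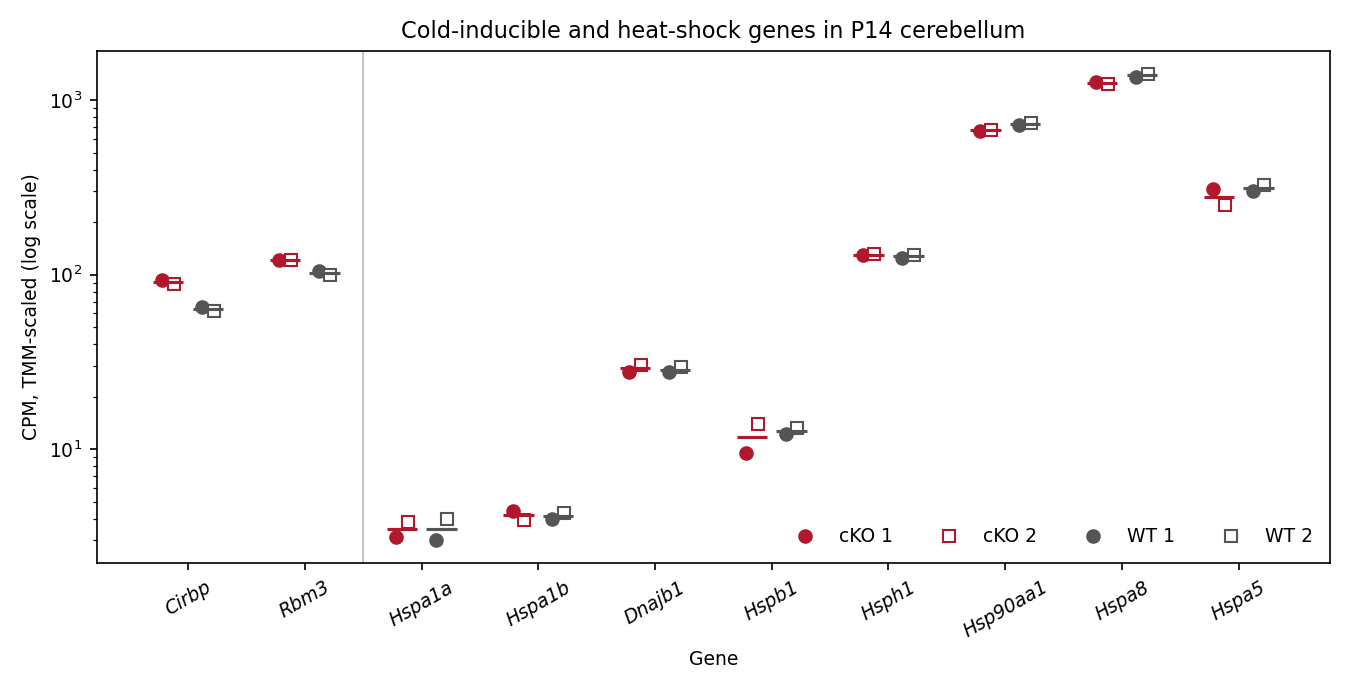
Level of each gene in CPM, scaled by TMM, on a log axis. Circles and squares are libraries 1 and 2 of cKO (red, left in each pair) and WT (grey), and short lines are group means. The red symbols of Cirbp (93.7 and 88.6 CPM) and Rbm3 lie above the grey ones, those of Hsp90aa1 and Hspa8 lie slightly below, and the other 6 genes overlap.

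The genes that HSF1 induces most strongly under stress were low in both genotypes. Hspa1a (ENSMUSG00000091971.3, chr17:34969190-34972156, minus strand), an HSP70 chaperone that is scarce until cells are stressed, was at 3.12 and 3.81 CPM in cKO 1 and cKO 2, against 3.02 and 3.995 CPM in WT 1 and WT 2. The groups overlapped, with each genotype holding 1 lower and 1 higher library. Behind these levels stood 31 and 34 counts in cKO, against 28 and 37 counts in WT, so a log2 fold change of −0.021 had an SE of 0.34. Its near copy Hspa1b (ENSMUSG00000090877.3, chr17:34956436-34959238, minus strand) was at 4.44 and 3.92 CPM in cKO 1 and cKO 2, against 3.99 and 4.32 CPM in WT 1 and WT 2. These too overlapped (log2 0.010, SE 0.31). A moderate difference of either gene was not detectable at this depth.

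Reads cannot always be assigned between this pair. Of the 150-base words in the transcripts of Hspa1a, 39.7% also occur in Hspa1b or Hspa1l, and 40.5% of those of Hspa1b occur in Hspa1a or Hspa1l. Entries not uniquely aligned, 8.97% to 9.14% of each library, were tallied on a line that names no gene. How many of them came from these stretches cannot be read from the counts. Also, 19.0% of the exon length of Hspa1a lies under Gm20481 on the other strand. Summed over both genes, the level was 7.56 and 7.73 CPM in cKO 1 and cKO 2, against 7.01 and 8.31 CPM in WT 1 and WT 2. The cKO values lay between the WT values, so the sum showed no ordering by genotype either.

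Dnajb1 (ENSMUSG00000005483.10, chr8:83608193-83612653, plus strand), the J-domain partner that stimulates HSP70 and is itself an HSF1 target, was at 27.7 and 30.2 CPM in cKO 1 and cKO 2, against 27.6 and 29.6 CPM in WT 1 and WT 2. The 2 genotypes covered almost the same range (log2 0.018, SE 0.12). Dnajb1 shares no 150-base word with another annotated gene. Hspb1 (ENSMUSG00000004951.10, chr5:135887919-135889563, plus strand), the small heat-shock protein that holds unfolded proteins and protects actin filaments, was at 9.47 and 13.9 CPM in cKO 1 and cKO 2, against 12.2 and 13.3 CPM in WT 1 and WT 2. Its 2 cKO libraries lay on either side of both WT libraries (log2 −0.13, SE 0.20). The Hspb1 value was −0.42 without cKO 2 and 0.13 without cKO 1, so 1 library set its sign. A pseudogene, Hsp25-ps1, shares 39.1% of the Hspb1 words.

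Hsph1 (ENSMUSG00000029657.15, chr5:149614287-149636376, minus strand), the HSP110 chaperone that recharges HSP70 with ATP, was at 129 and 131 CPM in cKO 1 and cKO 2, against 125 and 130.2 CPM in WT 1 and WT 2. The libraries were close throughout (log2 0.027, SE 0.076), and Hsph1, the gene with the 3-unit heat-shock element, shares no word with another gene. Hsp90aa1 (ENSMUSG00000021270.13, chr12:110690605-110702728, minus strand), the inducible cytosolic HSP90, was at 668 and 674 CPM in cKO 1 and cKO 2, against 716 and 737 CPM in WT 1 and WT 2. Both cKO libraries were below both WT libraries, by a small margin (log2 −0.11, SE 0.068). Pseudogenes of Hsp90aa1 share 28.5% of its words.

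The most abundant of the 10 was Hspa8 (ENSMUSG00000015656.17, chr9:40800984-40810087, plus strand), the constitutive HSC70 chaperone that also strips clathrin from vesicles. It was at 1271 and 1244 CPM in cKO 1 and cKO 2, against 1361 and 1410 CPM in WT 1 and WT 2. Both cKO libraries were below both WT libraries (log2 −0.14, SE 0.065). Pseudogenes share 22.8% of its words. Of its exon length, joined over 10 annotated transcripts, 6.09% overlaps small nucleolar RNA genes. Hspa5 (ENSMUSG00000026864.13, chr2:34771970-34777547, plus strand), the HSP70 of the endoplasmic reticulum also called BiP, was at 308 and 252 CPM in cKO 1 and cKO 2, against 302 and 324 CPM in WT 1 and WT 2. Here cKO 1 fell between the WT libraries and cKO 2 below them, and the log2 fold change of −0.16 (SE 0.082) became −0.020 without cKO 2 and −0.31 without cKO 1.

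Read together, the heat-shock genes did not mirror Cirbp in size. Of 8 heat-shock genes, 3 had a log2 fold change above 0 and 5 below, with a median of −0.068. Their range was −0.16 to 0.027, beside a median of 0.0036 over all tested genes. This split of signs depended on WT 1. With WT 1 left out, every heat-shock gene lay below 0, from −0.21 (Hspa5) to −0.00021 (Hsph1). With WT 2 left out, signs stayed mixed, from −0.11 (Hspa8) to 0.20 (Hspa1a). Hsp90aa1 (−0.11) and Hspa8 (−0.14) were the 2 whose cKO libraries both lay below WT, and in the other 6 of 8 the groups overlapped. Over all 10 genes the groups did not overlap in 4, beside 46.4% of all tested genes. Without cKO 1 or cKO 2 the lone mutant library has no spread of its own, so no threshold was read for Cirbp there. In the fit over all genes and all 4 libraries 1 of 10, Cirbp, was past an adjusted p threshold of 0.05. Of all tested genes, 1.87% passed as higher and 2.17% as lower. Cirbp was chosen for being higher in this contrast, so its place past the threshold came with the choice, and nothing is read from these counts.

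**Figure D2:**
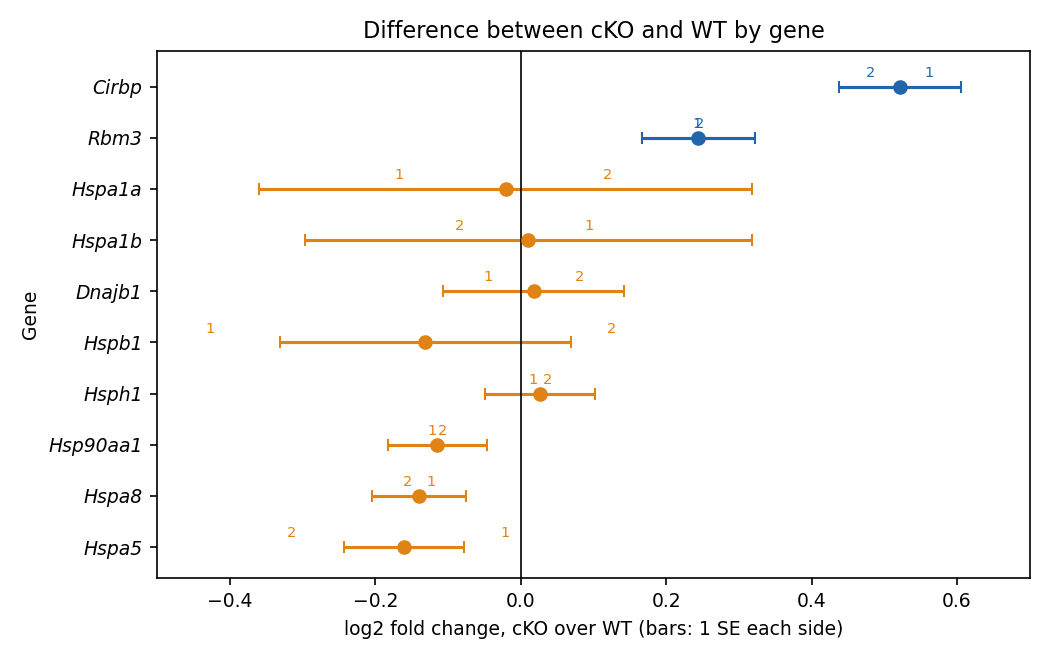
Log2 fold change of cKO over WT for each gene, with bars of 1 SE each side (n = 2 each). Blue marks the cold-inducible genes and orange the heat-shock genes, and the digits 1 and 2 mark each cKO library over the WT mean. Cirbp stands at 0.52 and Rbm3 at 0.24, while the heat-shock genes lie between −0.16 and 0.027.

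The heat-shock genes were not ordered alike in the 2 mutants. Against the WT mean, their median log2 difference was −0.083 in cKO 1, with 2 above 0 and 6 below, and −0.019 in cKO 2, with 4 above and 4 below. Cirbp stood at 0.56 in cKO 1 and 0.48 in cKO 2, and Rbm3 at 0.24 and 0.25. The median over the 8 heat-shock genes was −0.15 without WT 1 and −0.0057 without WT 2. Their summed level was 2421 and 2353 CPM in cKO 1 and cKO 2, against 2550.2 and 2653 CPM in WT 1 and WT 2. This sum is mainly a measure of Hspa8, which took 52.5% to 53.4% of it in each library.

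Libraries of the same genotype differed from each other by a median of 0.147 in cKO and 0.131 in WT over all tested genes, on the log2 scale with 0.5 CPM added. The gaps of single genes below were taken with nothing added, which makes those of scarce genes somewhat wider. Cirbp was closer than that median, at 0.081 in cKO and 0.074 in WT. So were Hsph1 (0.019 and 0.055), Hsp90aa1 (0.015 and 0.042) and Hspa8 (0.032 and 0.052). The widest gaps belonged to Hspb1 in cKO, at 0.55, and to Hspa1a in WT, at 0.40. Hspa5 differed by 0.29 between the cKO mice and by 0.10 between the WT mice.

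Divided by exon length, the levels spanned more than 2 orders of magnitude. Hspa8 averaged 292 CPM per kb in cKO and 322 CPM per kb in WT, followed by Hsp90aa1 at 171 in cKO and 185 in WT, and Hspa5 at 66.2 in cKO and 74.0 in WT. Cirbp averaged 35.0 CPM per kb in cKO and 24.4 in WT, and Rbm3 25.7 in cKO and 21.7 in WT. Rbm3 in cKO lay just above Cirbp in WT, so on this scale Cirbp stood above Rbm3 within each genotype but not across them. That order rests on the divisor, which joins the exons of all annotated transcripts. It was 4698 bases over 11 transcripts for Rbm3 and 2604 bases over 7 for Cirbp. In CPM, Rbm3 was above Cirbp in every library. Hsph1 (17.9 CPM per kb in cKO and 17.6 in WT) came next, then Hspb1 (11.3 in cKO and 12.4 in WT) and Dnajb1 (9.05 in cKO and 8.93 in WT), whose ranges over the libraries overlapped. Hspa1b averaged 1.49 CPM per kb in cKO and 1.48 in WT, and Hspa1a 1.17 in cKO and 1.18 in WT, with the ranges of the pair not overlapping but subject to the reads they share.

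Genes whose 4 values most resembled those of a member were sought among 8731 genes with a mean of at least 20 CPM, by the root mean square difference of centred log2 values over 4 libraries. For Cirbp these were Arhgef25 (0.0241), which encodes a guanine nucleotide exchange factor for RhoA, Faim (0.0345), an inhibitor of Fas-induced cell death, and Kirrel (0.0394), a cell adhesion protein. Arhgef25 was at 89.7 and 86.4 CPM in cKO 1 and cKO 2, against 64.5 and 58.6 CPM in WT 1 and WT 2. For Hspa1a the nearest were Cacfd1 (0.0157), Hist3h2ba (0.0242) and Rae1 (0.0278), which like it had 1 low and 1 high library in each genotype. Cacfd1 was at 37.2 and 45.3 CPM in cKO 1 and cKO 2, against 37.0 and 46.3 CPM in WT 1 and WT 2. With 4 points such likeness is easily met.

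The genes next to Cirbp and Rbm3 were read to see whether the differences stood alone. Of 6 tested genes within 50 kb of Cirbp, Midn, the gene just upstream for a protein that sends targets to the proteasome, was also higher. It was at 98.5 and 112.7 CPM in cKO 1 and cKO 2, against 81.1 and 81.4 CPM in WT 1 and WT 2 (log2 0.38, SE 0.085, edgeR adjusted p = 0.0127). Its value was 0.37 without WT 1, 0.38 without WT 2, 0.47 without cKO 1 and 0.28 without cKO 2. Midn was not past the threshold with no filter on low counts, nor with WT 1 or WT 2 left out. Stk11 (0.081), Atp5d (0.071), Cbarp (−0.055), Efna2 (0.15) and 1600002K03Rik (0.28) did not pass. Beside Rbm3, the smallest adjusted p of 5 tested genes was that of the antisense gene Rbm3os, which was at 25.1 and 23.5 CPM in cKO 1 and cKO 2, against 18.4 and 17.5 CPM in WT 1 and WT 2 (log2 0.44, SE 0.14, edgeR adjusted p = 0.0941). Rbm3os shares 94 bases of exon with Rbm3 on the other strand, and no source used here states whether the counting used strand, so reads of that stretch cannot be told apart. Around all 10 genes 37 neighbours were tested and 4 passed, where 4.04% of all tested genes did. Midn and Clmp were higher, Vwa7 and Srrm3os lower. Nothing is read from this count. Neighbours were looked up after the members' values were seen.

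**Figure D3:**
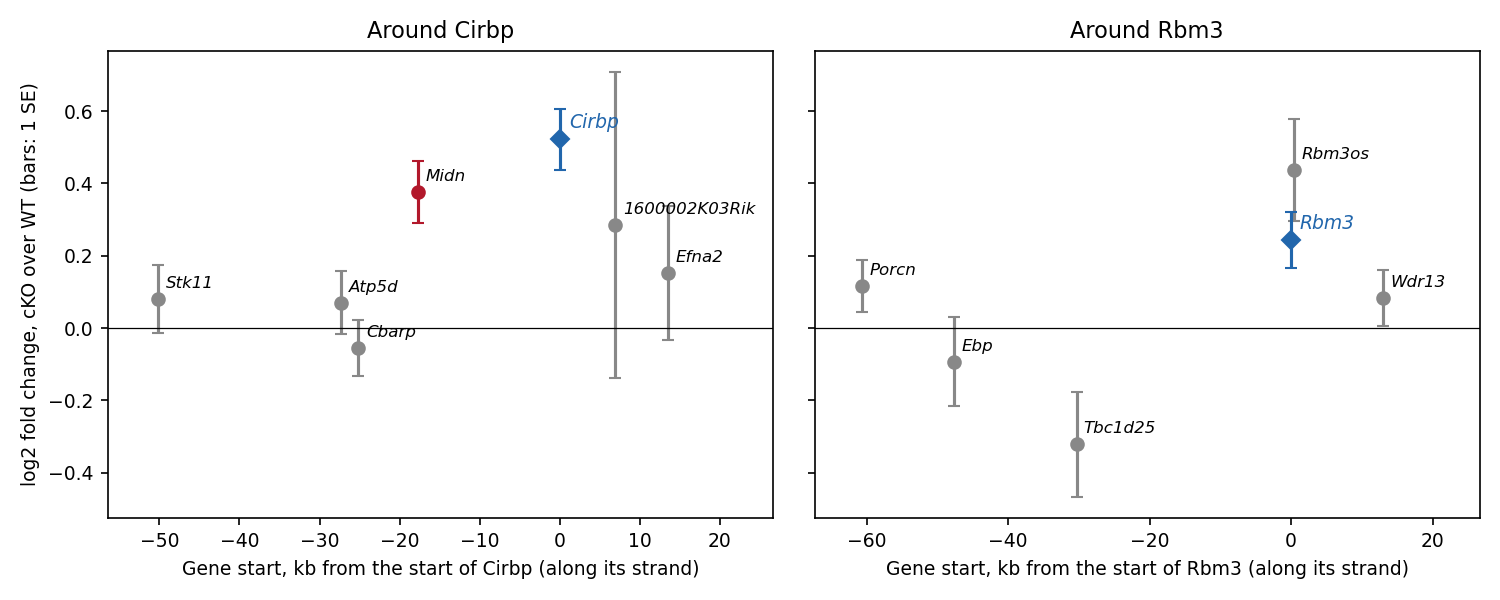
Log2 fold change of cKO over WT, with bars of 1 SE, for tested genes within 50 kb of Cirbp (left) and Rbm3 (right), against the distance of each gene's start in kb along the member's strand. Blue diamonds are Cirbp and Rbm3, red marks an edgeR adjusted p under 0.05 and grey the rest. Midn at 0.38 is the only red point.

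The wider machinery was read from 10 lists of 122 genes, none of them among the 10, of which 112 were tested. Of these 112, 1 was higher, 1 was lower and 110 did not pass, or 1.79% called where 4.04% of all tested genes were (310 higher and 361 lower, or 434 higher and 292 lower when scaled by library size alone). The signs were mixed, 59 above 0 and 53 below, with a median of 0.012. At an unadjusted p under 0.05 stood 19 of 112, beside 2710 of all 16617 tested genes.

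The transcription factors above the heat-shock genes did not pass. Hsf1, the master regulator, was at 41.1 and 39.9 CPM in cKO 1 and cKO 2, against 40.3 and 39.0 CPM in WT 1 and WT 2, and the groups overlapped (log2 0.031). Hsf2, a developmental heat-shock factor, was at 49.8 and 54.1 CPM in cKO 1 and cKO 2, against 48.2 and 45.4 CPM in WT 1 and WT 2, with an edgeR adjusted p of 0.508. None of the 4 tested genes of this list passed by edgeR or by DESeq2, and 0 stood at an unadjusted p under 0.05. Hsf3 and Hsf5 had too few counts to test.

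Among chaperones none passed by edgeR with TMM scaling or by DESeq2, in lists of 9 other HSP70 and HSP110 genes, 16 HSP90 genes and cochaperones, 20 J-domain genes, 10 exchange factors of HSP70, 4 small heat-shock genes and 10 chaperonins. At an unadjusted p under 0.05 these lists held 0, 3, 3, 3, 1 and 2 genes in that order. Dnaja1, a J-domain protein of the cytosol, came near the threshold: it was at 201.5 and 211 CPM in cKO 1 and cKO 2, against 175 and 177 CPM in WT 1 and WT 2 (log2 0.23, SE 0.071, edgeR adjusted p = 0.0808, or 0.0391 when scaled by library size alone). Bag3, an exchange factor that is induced with heat-shock genes and guides damaged proteins to autophagy, was at 9.98 and 10.5 CPM in cKO 1 and cKO 2, against 15.5 and 14.9 CPM in WT 1 and WT 2 (log2 −0.57, SE 0.18, edgeR adjusted p = 0.0796). These 2 differed in opposite directions. Ptges3, the HSP90 cochaperone p23, was at 86.2 and 86.3 CPM in cKO 1 and cKO 2, against 73.3 and 73.1 CPM in WT 1 and WT 2 (edgeR adjusted p = 0.116).

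Hspd1, the mitochondrial chaperonin HSP60, was at 163 and 153 CPM in cKO 1 and cKO 2, against 141 and 140 CPM in WT 1 and WT 2 (edgeR adjusted p = 0.262). The chaperonins had 8 of 10 values above 0, with a median of 0.10, whereas the 4 small heat-shock genes tested all had values below 0, with a median of −0.19. Cryab, the αB-crystallin made in glia, was at 35.6 and 34.2 CPM in cKO 1 and cKO 2, against 47.4 and 36.9 CPM in WT 1 and WT 2 (edgeR adjusted p = 0.268). Hspa12b, a distant HSP70 relative of vessels, was at 12.5 and 10.2 CPM in cKO 1 and cKO 2, against 9.38 and 9.18 CPM in WT 1 and WT 2 (edgeR adjusted p = 0.516). None of these 3 genes passed, and the 2 WT libraries of Cryab differed more than the genotypes did on average. The log2 value of Cryab was −0.082 without WT 1 and −0.44 without WT 2, and that of Hspa12b was 0.14 without cKO 1 and 0.43 without cKO 2.

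Hspa5 belongs with the endoplasmic reticulum stress response, so 18 other genes of it were read. None passed by edgeR or by DESeq2, 3 stood at an unadjusted p under 0.05, and 6 values were above 0 and 12 below, with a median of −0.017. Xbp1, the transcription factor activated by splicing in that response, was at 84.2 and 68.8 CPM in cKO 1 and cKO 2, against 88.7 and 89.5 CPM in WT 1 and WT 2 (log2 −0.22, edgeR adjusted p = 0.229). As with Hspa5, cKO 2 was the lower mutant, and the Xbp1 value was −0.080 without cKO 2 and −0.37 without cKO 1.

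Among 9 other stress-inducible genes, Mt1, the metallothionein that binds zinc and copper and is induced by metals and glucocorticoids, was lower. It was at 110.7 and 126.7 CPM in cKO 1 and cKO 2, against 176.6 and 157.3 CPM in WT 1 and WT 2 (log2 −0.49, SE 0.084, edgeR adjusted p = 0.00129). Both cKO libraries were below both WT libraries, and the Mt1 value was −0.40 without cKO 1 and −0.59 without cKO 2. The lone mutant library has no spread of its own in those 2 fits, so the threshold was not read for Mt1 there. Among 12 relatives and partners of Cirbp and Rbm3, Rbmx, an X-linked RNA-binding protein of the same glycine-rich family, was higher. It was at 109 and 136 CPM in cKO 1 and cKO 2, against 92.0 and 95.3 CPM in WT 1 and WT 2 (log2 0.39, SE 0.093, edgeR adjusted p = 0.0206), and the adjusted p was 0.0566 with DESeq2. The Rbmx value was 0.36 without WT 1, 0.54 without cKO 1 and 0.22 without cKO 2. Rbmx was not past the threshold with no filter on low counts, nor with WT 1 left out. The Clk kinases, which shape splicing of Cirbp and Rbm3 with temperature, did not pass.

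**Figure D4:**
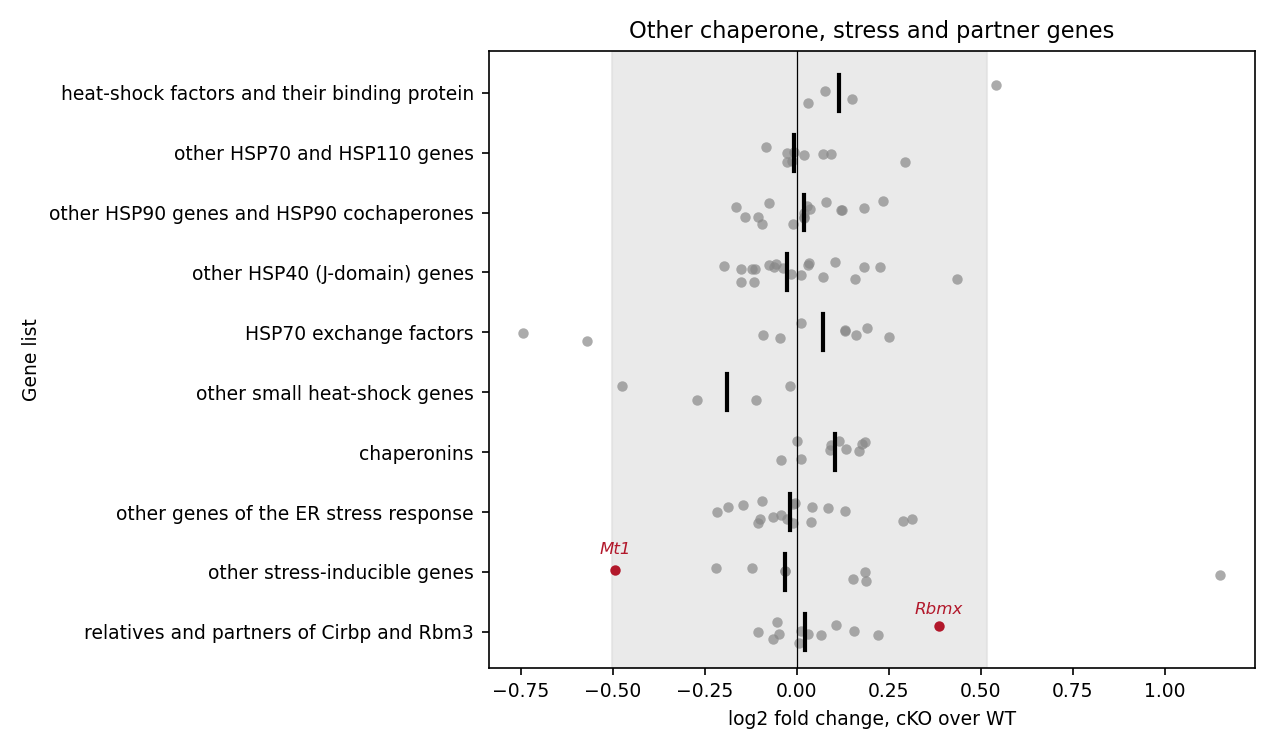
Log2 fold change of cKO over WT for the 112 tested genes of 10 lists, 1 point per gene, spread vertically at random. Black bars are list medians, red marks an edgeR adjusted p under 0.05, and the grey band holds the middle of all tested genes from the 5th percentile (−0.50) to the 95th (0.52). Mt1 at −0.49 and Rbmx at 0.39 are the red points.

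Some properties of the libraries moved with genotype. Kdm6b was at 127 and 119 CPM in cKO 1 and cKO 2, against 154 and 154 CPM in WT 1 and WT 2 (log2 −0.33, SE 0.076, edgeR adjusted p = 0.0162), and with any 1 library left out the value lay between −0.37 and −0.28 and did not pass. Counts ran over all exons of Kdm6b, so reads from exons outside the loxP sites were included, and the extent of deletion cannot be read from them. Depth was even, at 9892363 and 8811849 counts in genes for cKO 1 and cKO 2, against 9358139 and 9421970 for WT 1 and WT 2. Xist and Y-linked genes gave WT 1 the male pattern and the other 3 libraries the female one. Cirbp, Rbm3 and Hspa8 differed from WT in the same direction without WT 1, at 0.56, 0.29 and −0.16. Every heat-shock gene lay below 0 in that fit. The part of sex in these differences was not tested. Immediate-early genes are switched on in neurons by activity or handling. They summed to 198 and 188 CPM in cKO 1 and cKO 2, against 350 and 254 CPM in WT 1 and WT 2. Egr2 was at 0 in all. Of 13 tested (17 listed), 7 were lower, where 2.17% of all tested genes were. The count was 1 of 13 without WT 1, 5 of 14 without WT 2 and 2 of 13 by DESeq2, and without cKO 1 or cKO 2 it was 0 of 14, where 6 and 3 stood at an unadjusted p under 0.05. Their part in the differences of the cold-inducible and heat-shock genes was not tested.

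Markers of the tissue's cells bore out its label and differed in places. Of granule neuron markers, 1 of 8 was higher and 4 were lower, where 4.04% of all tested genes were called in either direction. By DESeq2, 0 of 8 were higher and 3 were lower. These markers summed to 5362 and 5118 CPM in cKO 1 and cKO 2, against 5694 and 5910 CPM in WT 1 and WT 2. Oligodendrocyte lineage markers summed to 7565 and 7641 CPM in cKO 1 and cKO 2, against 8829 and 8400 CPM in WT 1 and WT 2. By DESeq2 1 of 7 was lower, and by edgeR 3 of 7 were. Without WT 1 that count was 1 of 7. Bergmann glia and astrocyte markers went both ways: 2 of 6 were lower, while the other 4 had values above 0 that did not pass, with a list median of 0.062, and without WT 1 none passed (2 at an unadjusted p under 0.05). Purkinje cell markers were lower for 1 of 5, which did not pass without any 1 library. Choroid plexus markers summed to 670 and 36.2 CPM in cKO 1 and cKO 2, against 27.2 and 30.02 CPM in WT 1 and WT 2, nearly all of it Ttr in cKO 1. The Cirbp value without cKO 1 was 0.48. For microglia, vessel and blood markers the smallest edgeR adjusted p was 0.664, 0.532 and 0.396. The part of cell makeup in the results was not tested.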

How the data were processed

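Cerebellar RNA of 2 cKO and 2 WT mice was poly(A)-enriched and sequenced as 150 bp pairs. Per the methods and the submitters' processing notes, the authors trimmed reads (Trimmomatic 0.38), aligned them to mm10 (STAR 2.7.2b) and counted them per gene over exons with HTSeq. The deposited values were raw counts for 55341 genes; no source used here names the strand setting, and lines that name no gene (59.5% to 61.0% of entries, including those not uniquely aligned, 8.97% to 9.14% of all) were left out. Titles gave groups and replicate numbers, although both replicate 2 descriptions carry the number 1.

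Counts were fitted with edgeR 4.0.16 in R 4.3.3 (filterByExpr, TMM, quasi-likelihood test, two-sided, Benjamini-Hochberg over 16617 genes, threshold 0.05; biological coefficient of variation 7.33%). Standard errors came from the fold change and F statistic. The test was checked on simulated counts. Replicates differed beyond sampling noise (chi-square over its degrees of freedom 4.04 in cKO, 3.72 in WT). Alternatives, 12 in all, covered scaling, filtering, DESeq2 1.42.0, limma-voom 3.58.1, a replicate block and leaving out each library. Coordinates, exon lengths and shared 150-base words came from GENCODE M21 of GRCm38, which matched all symbols. The genes and lists were chosen with earlier results of these data known. By rule, the text names the 10 genes, Kdm6b, up to 3 called genes of each list or else the one with the smallest p, and the 3 genes most like Cirbp and Hspa1a; Midn, Rbm3os, Hsf1 and the other neighbours were added after their values were seen.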

Additional observations from a re-analysis of the deposited data

How the results depend on the processing

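Cirbp was chosen for being higher in these same 4 libraries, so its sign came with the choice. The Cirbp difference was positive in all 12 alternatives, from 0.48 to 0.56. Without each library in turn it ranged from 0.48 to 0.56, and the median of the 8 heat-shock genes from −0.15 (without WT 1) to −0.0057 (without WT 2). Hsp90aa1, Hspa8 and Hspa5 were below 0 in all 12, whereas Hspa1a, Hspa1b, Dnajb1, Hspb1 and Hsph1 changed sign in some.

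Genes called over the whole table numbered 671 by edgeR, 177 with no filter on low counts (28952 tested), 320 with DESeq2 and 1130 with a replicate block, and 0 to 507 with 1 library left out: 368 without WT 1, and 0 without cKO 1 or cKO 2 (2315 and 1718 at an unadjusted p under 0.05). Such fits borrow the spread of the lone library from the other genotype. The causes were not tested. Pathway genes called numbered 2 by edgeR, 3 with library size alone (Dnaja1, Mt1 and Rbmx), 1 with no filter and 1 with DESeq2 (Mt1 in both), 7 with the replicate block (Bag2, Bag3, Dnaja1, Dnajc6, Mt1, Mt2 and Rbmx), and 0 to 2 with 1 library left out; at 0, without cKO 1 or cKO 2, 16 and 13 stood at an unadjusted p under 0.05. Same-numbered libraries did not deviate together (correlation 0.0429), so the numbers were not read as pairs. Midn and Kdm6b missed the threshold with no filter, and also with WT 1 or WT 2 left out. With 1 library left out, Midn ranged from 0.28 to 0.47 and Kdm6b from −0.37 to −0.28.

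With 28 to 44 counts in a library, Hspa1a and Hspa1b are limited by depth.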

Other observations

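Hmox1, the heme oxygenase gene induced by oxidative stress, had the highest fitted value among the 112 wider genes, at 2.42 and 4.37 CPM in cKO 1 and cKO 2, against 1.29 and 1.73 CPM in WT 1 and WT 2 (log2 1.15, SE 0.44, edgeR adjusted p = 0.168). It did not pass, and 12 to 39 counts stood behind each level. Bag2, an inhibitor of the ubiquitin ligase CHIP that works with HSP70, had the lowest value, at 5.14 and 7.95 CPM in cKO 1 and cKO 2, against 11.6 and 10.2 CPM in WT 1 and WT 2 (log2 −0.74, SE 0.24, edgeR adjusted p = 0.0867). Mt2, the neighbour and relative of Mt1, was at 127 and 137 CPM in cKO 1 and cKO 2, against 164 and 143 CPM in WT 1 and WT 2 (log2 −0.22, edgeR adjusted p = 0.156). These genes were chosen after their values were seen. Hsp90ab1, the constitutive HSP90, was at 1258 and 1360 CPM in cKO 1 and cKO 2, against 1163 and 1245 CPM in WT 1 and WT 2 (log2 0.12), while its inducible partner Hsp90aa1 had a value of −0.11.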
